A study of Mus musculus with 11 samples.

Results

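Nuclear-encoded subunits of the 5 oxidative phosphorylation complexes were examined in mouse soleus and quadriceps after induction of Myc, a transcription factor that drives growth. Members were taken by gene symbol: Nduf genes of the a, b, c, s and v series for complex I, Sdha to Sdhd for complex II, Uqcr genes and Cyc1 for complex III, Cox4 to Cox8 genes for complex IV and Atp5 genes for complex V. The rule found 86 genes of 13359 in either table, 86 of 13121 in soleus and 85 of 12366 in quadriceps. They comprised 40 genes of complex I, 4 of complex II, 9 of complex III, 16 of complex IV and 17 of complex V. Cox7c-ps1 had a row in soleus alone. Genes of the mitochondrial chromosome were not analysed here.

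The respiratory chain passes electrons from NADH (complex I) and succinate (complex II) through complex III to oxygen at complex IV, and complex V uses the resulting proton gradient to make ATP. Most subunits are encoded in the nucleus and imported, and assembly factors then build the complexes without remaining in them. Soleus, a postural hindlimb muscle rich in slow oxidative fibres, depends heavily on this pathway. Quadriceps is mostly fast and holds fewer mitochondria per fibre.

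The Myc groups were Myc-labelled soleus (4 libraries) and Myc-labelled quadriceps (2 libraries), from mice 2.5 months old whose Myc expression was switched on by doxycycline overnight and whose muscles were taken 12 hours after the drug was removed. They were set against control soleus (3 libraries) and control quadriceps (2 libraries) of the same age. The labels give neither the promoter that drives the doxycycline system, nor the genotype of the controls, nor whether controls received doxycycline. Nothing in the labels ties a library to 1 animal, so the p-values reflect how much these samples vary, which may be technical. Levels are normalised read counts per gene, and a log2 change is the Myc-labelled level over the control level, fitted with limma and called at a Benjamini-Hochberg adjusted p under 0.05 over all genes tested.

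Libraries held 11.6 to 14.6 M estimated reads in Myc-labelled soleus, 11.1 to 14.9 M in control soleus, 14.6 to 15.6 M in Myc-labelled quadriceps and 14.2 to 18.4 M in control quadriceps. The Myc row, the check of the labels, held 26.3, 31.0, 28.8 and 27.7 in Myc-labelled soleus, against 30.04, 54.3 and 28.2 in control soleus. It held 86.4 and 33.6 in Myc-labelled quadriceps, against 114 and 55.7 in control quadriceps. The row did not separate the groups, so every direction below rests on the labels. Whether reads of an introduced Myc copy would fall in this row was not tested.

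Subunit transcripts stayed close to their control level in soleus. Of 86 members 0 rose and 1 fell, Ndufa1 of complex I, where 9.29% of the 12745 genes tested were called (7.06% higher, 2.23% lower). The median log2 change of the members was -0.11, a fold of 0.929, against -0.03 over all genes tested. The sign was negative for 73 of 86 members (84.9%), against 54.4% of all genes, and positive for 13, against 45.6%. In this tissue RNA, fewer mitochondria-rich cells and less of a transcript per cell cannot be told apart. The 95% interval of the change lay within 1.5-fold of no change for 75 of 86 members, against 39.7% of all genes. It excluded a 2-fold change for 85 of 86, against 8839 of the 12745 genes tested. The median SE was 0.11 for the members and 0.19 over all genes, so these counts reflect precision as well as the size of the changes. At an unadjusted p under 0.05 there were 10 members (0 higher, 10 lower), against 21.7% of all genes (12.9% higher, 8.77% lower).

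**Figure D1:**
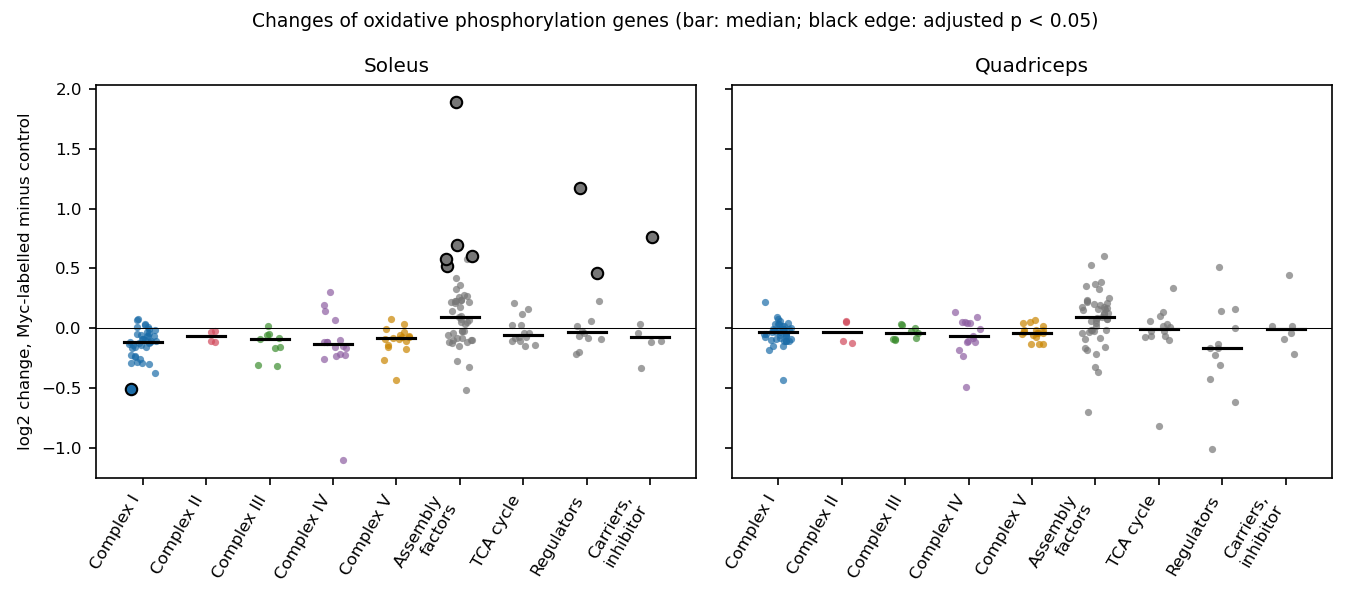
Log2 change of each gene (vertical axis, Myc-labelled minus control) in soleus (left) and quadriceps (right), by complex and for 4 related lists; each point is a gene, each bar a median and a black edge marks an adjusted p under 0.05. In soleus the medians of the 5 complexes lie between -0.14 and -0.07 and Ndufa1 is the called member, while 8 genes of the other lists are called higher.

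Ndufa1 encodes a small membrane-arm subunit that complex I needs to assemble. Its levels were 568, 583, 581 and 516 in Myc-labelled soleus, against 664, 797 and 965 in control soleus. All 4 Myc-labelled libraries were below all 3 controls, and the controls were the more spread group. Ndufa1 averaged 562 ± 31.6 in Myc-labelled soleus and 809 ± 151 in control soleus (SD, n = 4 and n = 3), a log2 change of -0.51 (SE 0.13, 95% interval -0.78 to -0.23, limma adjusted p = 0.019). The call was lost when both muscles were fitted jointly (limma adjusted p = 0.066), without Myc-labelled replicate 4 (0.064), without control replicate 2 (0.065) and without control replicate 3, the highest library, where the log2 change was -0.37 (limma adjusted p = 0.10). In quadriceps Ndufa1 held 630 and 679 in Myc-labelled libraries, against 551 and 903 in controls, which overlapped.

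The start of Ndufa1 is shown beside that of Atp5g1 because Myc with its partner Max is known to bind the hexamer CACGTG. Atp5g1, which encodes a copy of the ring-forming c subunit of complex V, held the hexamer closest to its start among the members, 44 bases before it. Both sequences are the 250 bases before the start, 5′ to 3′, from RefSeq on GRCm38.p6, on the minus strand (Ndufa1 at chrX:37191239-37191488 and Atp5g1 at chr11:96075632-96075881), and capitals mark the hexamer.
Ndufa1: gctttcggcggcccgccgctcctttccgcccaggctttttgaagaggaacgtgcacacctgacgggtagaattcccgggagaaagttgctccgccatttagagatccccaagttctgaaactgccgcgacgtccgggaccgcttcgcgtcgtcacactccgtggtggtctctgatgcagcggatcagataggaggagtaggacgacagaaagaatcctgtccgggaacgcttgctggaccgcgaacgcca
Atp5g1: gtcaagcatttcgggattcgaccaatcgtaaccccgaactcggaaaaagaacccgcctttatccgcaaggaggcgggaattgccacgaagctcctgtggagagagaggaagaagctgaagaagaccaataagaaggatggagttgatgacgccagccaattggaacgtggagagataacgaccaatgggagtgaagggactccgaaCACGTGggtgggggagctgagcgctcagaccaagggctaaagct
CACGTG reads the same on both strands and was searched from 250 bases before to 50 after each start. Promoter windows were found for 67 of 86 members, 72 windows in all, and 7 of them (9.72%) held it. They belonged to 6 genes: Atp5g1, Atp5g3, Atp5l, Atp5pb, Ndufa7 and Ndufv1. The hexamer stood in 1300 of 12974 windows (10%) of genes tested in soleus and in 7.15% of all 32851 windows. The Ndufa1 window held none. Atp5g1 itself held 2870, 2977, 3336 and 3071 in Myc-labelled soleus, against 3146, 3524 and 4466 in control soleus, and did not pass the test (log2 change -0.26, SE 0.11, limma adjusted p = 0.18).

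Complex I, the NADH dehydrogenase, had the called member and a median log2 change of -0.11 over 40 genes in soleus, with 34 below 0. Groups did not overlap for 4 of its genes, all lower in Myc-labelled soleus: Ndufa1, Ndufb11, Ndufs5-ps and Ndufv3. Over all 86 members 5 were lower without overlap and 0 higher, against 8.35% and 12.7% of all genes. Ndufb11, another membrane-arm subunit, held 2645, 2684, 3134 and 2831 in Myc-labelled soleus, against 3320, 3363 and 3605 in control soleus. Its log2 change was -0.28 (SE 0.09, limma adjusted p = 0.074), just over the threshold. Ndufv3, an accessory subunit of the NADH-binding arm, held 1367, 1284, 1339 and 1303 in Myc-labelled soleus, against 1484, 1554 and 1639 in control soleus (log2 change -0.24, limma adjusted p = 0.14).

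Rows named or annotated as pseudogenes are uncertain, since reads of near-identical copies may be split in ways the counting cannot resolve. Ndufs5-ps held 378, 410, 410 and 372 in Myc-labelled soleus, against 551, 491 and 490 in control soleus (log2 change -0.38, SE 0.12, limma adjusted p = 0.067). As a share of Ndufs5 it was 25.4% ± 3.18 in Myc-labelled soleus and 31.3% ± 2.15 in control soleus (SD, n = 4 and n = 3). The share did not pass an exact two-sided permutation test of the log2 ratio (p = 0.057, adjusted p = 0.23 over 8 ratios). Cox7c-ps1 had the lowest log2 change of any member, -1.10, with a 95% interval of -2.55 to 0.34. Cox7c-ps1 held 20.4, 17.6, 9.25 and 5.96 in Myc-labelled soleus, against 15.99, 14.6 and 81.2 in control soleus, where replicate 3 stood far above the others. Ndufb4c, annotated as a processed pseudogene, held 1791 to 2179 in Myc-labelled soleus and 1844 to 2867 in control soleus, and Ndufb4 itself held 206 to 310 in Myc-labelled soleus and 145 to 318 in control soleus.

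Complex II, which is also the succinate dehydrogenase of the citric acid cycle, had 4 members, all below 0 and none called, with a median log2 change of -0.07. Sdha, the flavoprotein that oxidises succinate, held 13315, 13095, 16377 and 14219 in Myc-labelled soleus, against 14624, 14662 and 16951 in control soleus, and the groups overlapped (log2 change -0.12, limma adjusted p = 0.56). Sdhb, the iron-sulfur subunit, and Sdhc and Sdhd, the membrane anchors, had log2 changes of -0.03, -0.11 and -0.02. All 4 intervals lay within 1.5-fold of no change.

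Complex III, the cytochrome bc1 complex, had 8 of 9 members below 0 and a median log2 change of -0.09. Uqcrb, a small subunit near the quinone site, held 1835, 1565, 2039 and 1926 in Myc-labelled soleus, against 2114, 2076 and 2687 in control soleus. The groups did not overlap, and the change did not pass the test (log2 change -0.31, SE 0.12, limma adjusted p = 0.12). Uqcr10, a small membrane subunit, had a similar log2 change of -0.31 that came with 5331 in control replicate 3, while the other controls, at 2973 and 3277, lay within or just above the Myc-labelled range of 2861 to 3141. Uqcrc1, a core protein and the most abundant row of the complex, averaged 15861 ± 1574 in Myc-labelled soleus and 16799 ± 1546 in control soleus (SD, n = 4 and n = 3; limma adjusted p = 0.69).

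Complex IV, cytochrome c oxidase, had the lowest median of the 5 complexes, -0.14, and also the members with the highest changes. Several of its subunits come in a muscle form and a broadly expressed form. Cox6a2, the muscle form, held 13847, 13002, 15313 and 15670.0 in Myc-labelled soleus, against 14600.3, 15992 and 20961 in control soleus (log2 change -0.24, SE 0.12, limma adjusted p = 0.27). Cox6a1, the broad form, held 459, 473, 570 and 651 in Myc-labelled soleus, against 479, 432 and 389 in control soleus (log2 change 0.30, SE 0.14, limma adjusted p = 0.23). Neither passed the test, and in both the groups overlapped.

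The share of Cox6a1 relative to Cox6a2 did separate the soleus groups, at 3.31%, 3.64%, 3.72% and 4.16% in Myc-labelled libraries, against 3.28%, 2.699% and 1.85% in controls. The log2 ratio was higher by 0.54 in Myc-labelled soleus (n = 4 and n = 3). An exact two-sided permutation test gave p = 0.029, the smallest that 35 splits allow, and 0.23 after Benjamini-Hochberg adjustment over 8 such ratios. A single ratio at the smallest p could not pass after that adjustment, so the adjusted value does not decide. Leaving out any 1 library gave a difference in log2 ratio of 0.31 to 0.72, the lowest without control replicate 3. Cox8a as a share of the muscle form Cox8b was 17.0% ± 1.72 in Myc-labelled soleus and 13.4% ± 2.75 in control soleus (SD, n = 4 and n = 3; exact permutation p = 0.11, adjusted p = 0.30). The third pair went the other way, with Cox7a2 at 54.4% ± 3.22 of Cox7a1 in Myc-labelled soleus and 60.6% ± 16.5 in control soleus (exact permutation p = 0.69, adjusted p = 0.91), and its sign turned without control replicate 3. Cox4i2, the form known for low oxygen, stayed at 0.35% to 0.58% of Cox4i1 in Myc-labelled soleus and 0.48% to 0.58% in control soleus.

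Ndufa4, named for complex I and now assigned to complex IV, had a log2 change of -0.14, and its relative Ndufa4l2 one of -0.04. Both were counted with complex I by symbol, as were the rows Ndufs5-ps and Ndufb4c. Cox7a2l, which links complexes into supercomplexes, held 2473, 2258, 2334 and 2869 in Myc-labelled soleus, against 2402, 2348 and 2307 in control soleus. Cox6b1 and Cox6c, both small structural subunits, had log2 changes of -0.12 and -0.25 (limma adjusted p = 0.53 and 0.22).

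Complex V, the ATP synthase, had 15 of 17 members below 0 and a median log2 change of -0.08. Atp5b, the catalytic beta subunit, held 49258, 48571, 58665 and 54623 in Myc-labelled soleus, against 52144, 53019 and 63797 in control soleus, and the groups overlapped (log2 change -0.09, SE 0.10, limma adjusted p = 0.66). Per kilobase of exon it was also the highest of 81 members with an exon length, at 27550 in Myc-labelled soleus and 29390 in control soleus. Atp5md, a small subunit that stabilises synthase dimers, held 600, 504, 721 and 627 in Myc-labelled soleus, against 702, 754 and 1051 in control soleus (log2 change -0.43, SE 0.15, limma adjusted p = 0.091). Only Myc-labelled replicate 3 reached into the control range there. The c subunit is encoded by 3 genes with 1 mature product, and besides Atp5g1 their log2 changes were -0.08 for Atp5g2 and -0.09 for Atp5g3. Atp5j, a stalk subunit, and Atp5mpl, a small membrane subunit, had log2 changes of -0.15 and -0.18.

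**Figure D2:**
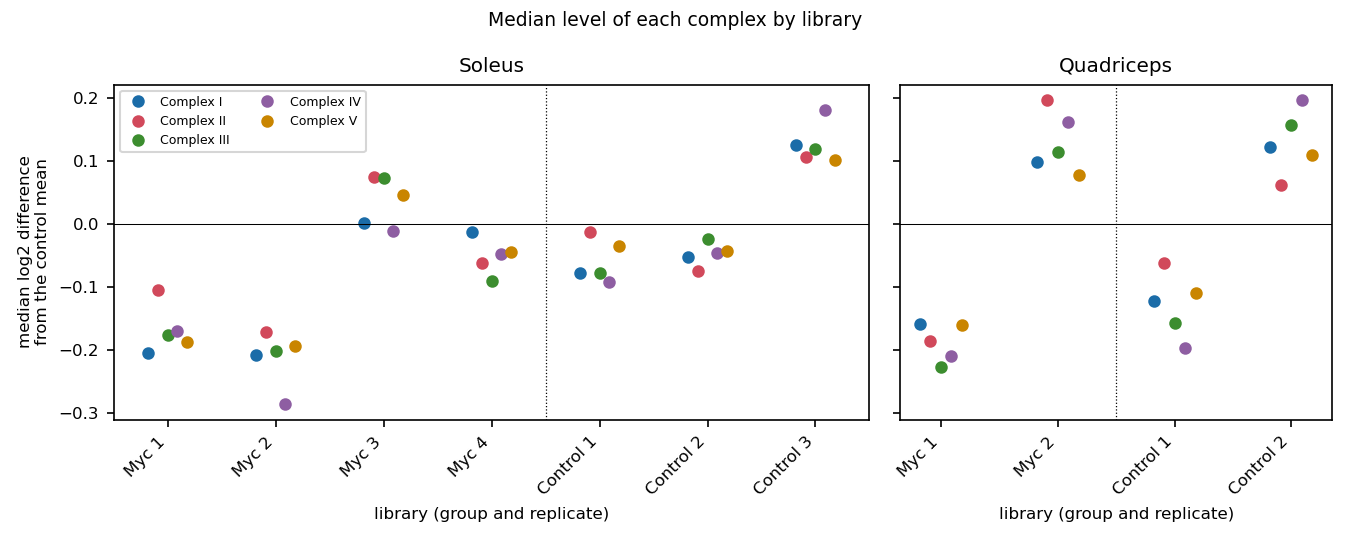
Median log2 difference from the control mean over the members of each complex (vertical axis) in each library (horizontal axis), soleus left and quadriceps right, Myc-labelled libraries left of the dotted line. The complexes move together within a library: Myc-labelled soleus replicates 1 and 2 lie lowest, control soleus replicate 3 highest, and in quadriceps the library numbered 2 lies above that numbered 1 in each group.

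The 5 complexes moved together from library to library. Over all 86 members the median log2 difference from the control mean was -0.19, -0.20, 0.01 and -0.03 in Myc-labelled soleus, and -0.07, -0.05 and 0.12 in control soleus. Myc-labelled replicates 3 and 4 lay within the control range, and replicates 1 and 2 below it. Control replicate 3 had the highest control value for 57 of 86 members. Members held 3.44%, 3.42%, 3.65% and 3.64% of all signal in Myc-labelled soleus, against 3.49%, 3.54% and 4.02% in control soleus. Without control replicate 3 the median log2 change of the members was -0.05 and 62 of 86 were below 0, and without both Myc-labelled replicates 3 and 4 it was -0.20 with 82 below 0.

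Markers of other cells and fibres also varied over these libraries. The 10 tendon markers summed to 2561 to 8292 in Myc-labelled soleus, lowest in replicates 3 and 4, against 8667 to 10413 in control soleus. Of the 10, 9 were below 0, 5 were lower without overlap, none was called and none was at 0. Over all genes tested in soleus 54.4% were below 0, 8.35% were lower without overlap and 2.23% were called lower. The 12 fast-fibre markers summed to 451315 to 712882 in Myc-labelled soleus and 684536 to 721842 in control soleus, with 12 of 12 below 0 and 1 called lower, the light chain Mylpf. Mylpf lost its call when both muscles were fitted jointly (limma adjusted p = 0.072), without control replicate 2 (0.059) and without both Myc-labelled replicates 3 and 4 (0.052). The 10 slow-fibre markers summed to 504670 to 645089 in Myc-labelled soleus and 534736 to 622212 in control soleus, with 7 of 10 below 0 and none called. All tested markers of 5 further lists were below 0 and none was called: 5 erythroid genes with a median log2 change of -0.60, 7 fibroblast genes at -0.47, 7 macrophage genes at -0.37, 7 adipocyte genes at -0.37 and 6 endothelial genes at -0.19. Summed levels in Myc-labelled soleus against control soleus were 3277 to 7523 against 7444 to 7704 for the erythroid list, and 5680 to 17551 against 13806 to 20574 for the fibroblast list. They were 348 to 788 against 519 to 837 for the macrophage list, 3216 to 6291 against 3659 to 6196 for the adipocyte list, and 5328 to 6506 against 6370 to 7350 for the endothelial list. The 6 Schwann cell markers were all above 0 with a median of 0.37 and none called, and summed to 2062 to 5016 in Myc-labelled soleus and 1776 to 2699 in control soleus. None of the markers tested was at 0 in any soleus library, and the part of these lists in the subunit values was not tested.

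Genes that build, supply or regulate the complexes were described beside the subunits, without a test between the lists. Of 45 assembly factors tested in soleus 5 rose and 0 fell, where 7.06% of all genes were called higher and 2.23% lower. Without overlap between groups 8 were higher and 1, Sdhaf4, was lower, against 12.7% and 8.35% of all genes. The median log2 change of the assembly factors was 0.10, with 28 above 0 and 17 below. Sco2 and Sco1, which deliver copper to complex IV, were among them. Sco2 held 249, 281, 269 and 297 in Myc-labelled soleus, against 152, 62.5 and 40.9 in control soleus (log2 change 1.89, SE 0.36, limma adjusted p = 0.0072). Sco1 held 310, 290, 342 and 356 in Myc-labelled soleus, against 220, 199 and 182 in control soleus (log2 change 0.69, SE 0.15, limma adjusted p = 0.0080). Cox19, another factor of copper handling, Bcs1l, which inserts the iron-sulfur protein of complex III, and Ndufaf4, a complex I assembly factor, rose by 0.60, 0.58 and 0.52 on the log2 scale. Bcs1l lost its call without Myc-labelled replicate 2 or 4 or control replicate 1 or 2 (limma adjusted p = 0.072 to 0.11), and Sco2 without control replicate 2 (0.056). Without both Myc-labelled replicates 3 and 4 Bcs1l, Sco1 and Sco2 were not called (limma adjusted p = 0.16, 0.11 and 0.099).

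**Figure D3:**
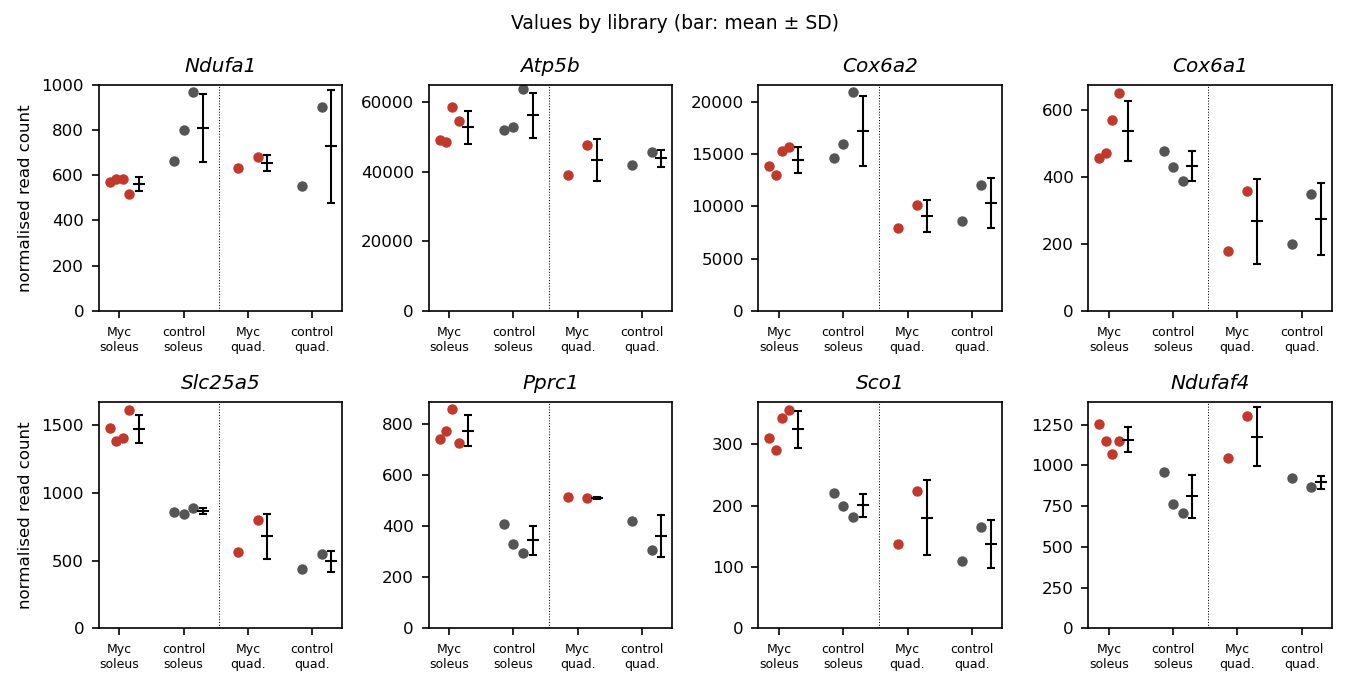
Normalised read counts (vertical axes, from 0) of 4 subunit genes (upper row) and 4 related genes (lower row) in Myc-labelled (red) and control (grey) libraries of soleus and quadriceps; points are libraries and black bars the mean ± SD (n = 4, 3, 2 and 2). Ndufa1 is lower in all 4 Myc-labelled soleus libraries, and Slc25a5, Pprc1, Sco1 and Ndufaf4 are higher in all 4.

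Slc25a5, an ADP/ATP carrier of dividing cells, rose in soleus: it held 1482, 1381, 1406 and 1612 in Myc-labelled libraries, against 856, 846 and 891 in controls (log2 change 0.76, SE 0.10, limma adjusted p = 7.09e-05). Slc25a4, the muscle form of the same carrier, had a log2 change of -0.04 (limma adjusted p = 0.85), and Cycs, cytochrome c, one of 0.03. Slc25a5 was the 1 gene called of 6 carriers and inhibitors. That list also held Ndufab1, an Nduf gene that the symbol rule left out of complex I. Of 12 regulators of mitochondrial genes 2 rose, where 7.06% of all genes were called higher, and the list's median log2 change was -0.03 with 7 of 12 below 0. Pprc1, a coactivator related to PGC-1, held 740, 772, 858 and 723 in Myc-labelled soleus, against 406, 332 and 296 in control soleus (log2 change 1.17, SE 0.13, limma adjusted p = 1.68e-05). Tfam, which packages and transcribes mitochondrial DNA, rose by 0.46 (limma adjusted p = 0.024), a call lost without Myc-labelled replicate 3 or 4, or both, or control replicate 1 or 2. Ppargc1a, which encodes PGC-1alpha, held 413 to 851 in Myc-labelled soleus and 531 to 831 in control soleus. Of 14 citric acid cycle genes 0 were called, with a median log2 change of -0.06 and citrate synthase (Cs) at -0.08.

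In quadriceps 0 of 85 members were called in either direction, where 0.00815% of 12270 genes were, and 0 had an unadjusted p under 0.05, against 6.21% of all genes (3.97% higher, 2.24% lower). The median log2 change was -0.04, against -0.03 over all genes tested, with 60 members below 0 and 25 above, against 54.2% and 45.8% of all genes. The medians of complexes I to V were -0.04, -0.03, -0.04, -0.06 and -0.04. The members' sign followed the scaling and the library: 32 were below 0 under library-size scaling, 24 without Myc-labelled replicate 1, 13 without control replicate 2, and 78 without Myc-labelled replicate 2 or without control replicate 1. With 2 libraries a group the 95% interval lay within 1.5-fold of no change for 56 of 85 members, against 22.4% of all genes. The median SE was 0.21 for the members and 0.24 over all genes. These intervals do not set what the adjusted test could call: the 10 slow-fibre markers, with a median log2 change of -4.77, were not called either. The lack of a call here thus does not show the lack of a change. Groups did not overlap for 3 members, Ndufb4c lower and Ndufa12 and Cox7a2l higher, against 16.9% of all genes lower and 18.3% higher. Ndufa12, an accessory subunit of complex I, held 1377 and 1383 in Myc-labelled quadriceps, against 1227 and 1144 in control quadriceps (log2 change 0.22, SE 0.16, limma adjusted p = 0.89).

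Within each quadriceps group the members' levels differed more between the libraries than between the groups. The library numbered 2 was above that numbered 1 for 75 of 85 members in Myc-labelled quadriceps and for 77 of 85 in control quadriceps, against 48.3% and 49.7% of all genes. The median fold between them was 1.20 in each group. Atp5b held 39228 and 47758 in Myc-labelled quadriceps, against 42061 and 45646 in control quadriceps. Cox6a1 held 179 and 358 in Myc-labelled quadriceps, against 200 and 351 in control quadriceps. The 12 fast-fibre markers as a list were lower in the library numbered 2, with sums of 2798380 and 2105130 in Myc-labelled quadriceps, against 2661010 and 1971210 in control quadriceps. Among them Myh2, the myosin of fast oxidative fibres, was higher in the library numbered 2 of each group, at 5516 and 42229 in Myc-labelled quadriceps, against 7752 and 70429 in control quadriceps. The 10 slow-fibre markers summed higher in the library numbered 2 of each group and lower in the Myc-labelled libraries, with sums of 1986 and 3525 in Myc-labelled quadriceps, against 26329 and 191046 in control quadriceps. Myh7, the slow myosin and a member of that list, held 174 and 156 in Myc-labelled quadriceps, against 9731 and 76136 in control quadriceps. Groups did not overlap for 8 of the 10, all lower in Myc-labelled quadriceps, against 16.9% of all genes. None of these fibre markers was at 0 or called, and their part in the subunit values was not tested.

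**Figure D4:**
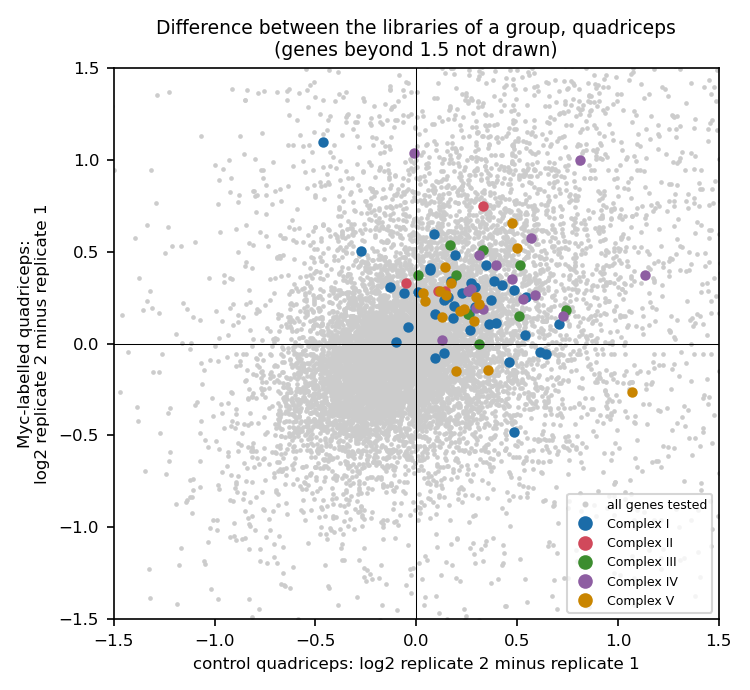
Log2 difference between the library numbered 2 and that numbered 1 within control quadriceps (horizontal axis) and within Myc-labelled quadriceps (vertical axis); each point is a gene, members coloured by complex over all genes tested in grey. Most members lie in the upper right quadrant: 75 of 85 are above 0 in Myc-labelled and 77 of 85 in control quadriceps.

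Related genes in quadriceps gave no call either: 0 of 45 assembly factors, 0 of 6 carriers and inhibitors, 0 of 12 regulators and 0 of 14 citric acid cycle genes. Over all 12270 genes tested there 0.00815% were called. The median log2 change of the assembly factors was 0.09, with 30 above 0 and 15 below. Without overlap between groups 15 of the 45 were higher and 4 lower, against 18.3% and 16.9% of all genes. Bcs1l held 397 and 393 in Myc-labelled quadriceps, against 259 and 261 in control quadriceps (log2 change 0.60, limma adjusted p = 0.55). Ndufaf4, Sco1, Sco2 and Cox19 had log2 changes of 0.38, 0.37, 0.33 and -0.02 in quadriceps. Slc25a5 held 564 and 797 in Myc-labelled quadriceps, against 441 and 551 in control quadriceps (log2 change 0.44, SE 0.22, limma adjusted p = 0.84). Pprc1 held 512 and 508 in Myc-labelled quadriceps, against 421 and 305 in control quadriceps (log2 change 0.51, SE 0.20, limma adjusted p = 0.75).

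Whether the change differed between muscles was tested with all 11 libraries in a joint fit, as the change in soleus minus that in quadriceps. The fit took the libraries as independent, and the labels do not say whether soleus and quadriceps came from the same mice. Of 85 members 0 were called, and 0 had an unadjusted p under 0.05, where 0% and 3.18% of 11971 genes did. The median difference of the log2 changes was -0.07, against 0.03 over all genes tested. For Ndufa1 it was -0.40 (SE 0.26, 95% interval -0.96 to 0.16, limma adjusted p = 0.999). The 95% interval of the difference lay within 1.5-fold for 53 of 85 members, against 2506 of the 11971 genes tested. No member's change was thus shown to be particular to soleus.

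The members differed in level far more than they changed. Per kilobase of exon, complex I had a median of 2635 in Myc-labelled soleus and 2816 in control soleus over 38 genes, and complex V had one of 6079 in Myc-labelled soleus and 5779 in control soleus over 15 genes. The complex V medians fell on different genes, Atp5l in Myc-labelled and Atp5g2 in control soleus, so they show no rise. Of the 17 complex V members 15 had a log2 change below 0. After Atp5b the highest per kilobase in control soleus were Cox6a2 (25270), Atp5a1 (21210), Cox4i1 (17560) and Cox8b (12260), and the lowest were Cox4i2, Ndufa4l2 and Ndufb4. The same 5 genes had the lowest levels per kilobase in control soleus and control quadriceps, namely those 3 with Ndufb2 and Cox6a1. The rank of Ndufb2 rests on an exon length of 4371 bases. Ndufa2, with 572 bases, had a similar level per gene (1658, against 1668 for Ndufb2, in control soleus). Reads of Ndufb4 may be split with the pseudogene row Ndufb4c, which held 5602 per kilobase in control soleus. The tables of the muscles were scaled separately, so levels were ranked within each.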

How the data were processed

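RNA was sequenced from soleus and quadriceps and groups were taken from titles and condition labels. The authors deposited a normalised signal: the steps between low values show estimated counts that each library's own size factor had divided (below 300 reads, 90.9% to 93.4% of entries fell within 0.02 of a whole read). STAR 2.7.8a, Partek and DESeq2 and the builds mm10 and mm39 are named, without role, per the submitters' processing notes. The values are no whole counts, so limma 3.58.1 (R 4.3.3; trend, robust, statmod 1.5.0) was run on log2(value + 1), which understates changes of low genes. Genes needed a value of 10 in at least 3 soleus or 2 quadriceps libraries. All 86 soleus and 85 quadriceps members passed. Each muscle was fitted alone. The fits were also run on simulated data with added changes, whose recovery is not given here. Members, lists and tests were chosen with earlier results of these data known. Named genes were, per complex, called members, the 4 of smallest p in soleus and 2 in quadriceps, the most abundant, and alternative isoforms, plus called genes of related lists; other names were chosen after their values were seen. A gene that this rule names is not reported here. Exon lengths came from GENCODE M21 and promoters from RefSeq. Alternatives were other scalings, filters, pseudocounts, moderation, voom, a replicate block, 1 fit over 11 libraries and leaving out libraries.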

Additional observations from a re-analysis of the deposited data

Results flagged for a closer look

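In 65 sets of 4 values, 1 sample stood far from the others: Uqcr11, a small subunit of complex III, held 2001, 1672, 2036 and 2018 in Myc-labelled soleus. The gap of replicate 2 to its nearest neighbour was 0.914 of the range of the 4 on the log2 scale. The cut-off for flagging a gap is one that chance alone passes in about 1 in 20 sets. Control soleus held 1906, 2242 and 2338 for Uqcr11, and replicate 2 also had the lowest Myc-labelled value for 45 of 86 members.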

How the results depend on the processing

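In soleus 1 member was called. The count was 3 under upper-quartile scaling, added after seeing the data (Ndufa1, Ndufb11 and Ndufs5-ps), and 0 in 1 fit over all 11 libraries and without both Myc-labelled replicates 3 and 4. Leaving out 1 replicate gave 0 to 2. It stayed at 1 under library-size scaling, voom, no filter, a filter of 50, pseudocounts of 0.5 and 5 and no robust moderation. With the replicate number as a block, 4 members were called (Atp5md, Ndufa1, Ndufs4 and Uqcrb). No label says that numbers pair the samples: correlations of same-numbered deviations were 0.00104, 0.0762 and 0.138 in soleus, where Myc-labelled replicate 1 correlated best with control replicate 2. In quadriceps they were 0.144 for same-numbered and -0.144 for other pairs. With 2 libraries a group these share 1 magnitude by construction, so they say little on pairing. The members' median log2 change in soleus was -0.06 under library-size and -0.14 under upper-quartile scaling; the median in quadriceps was 0.02 and -0.05. No alternative called a member in quadriceps or between muscles. The number of all genes called in quadriceps was 1, against 94 in the fit over 11 libraries, 4 with the block, 0 under library-size scaling and 3 to 208 with 1 replicate left out. Over all soleus genes it was 1184, against 778 without control replicate 2 and 601 without both Myc-labelled replicates 3 and 4. TMM scaling and the planned edgeR and DESeq2 fits were not run, since whole reads were not recovered for all genes, while voom was run on estimated reads. The causes were not tested. With 2 quadriceps libraries a group, small changes are beyond the precision of these data. Large ones could also go uncalled, as did the slow-fibre markers with a median log2 change of -4.77.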
